A study of Mus musculus with 6 samples.

Results

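The 9 genes Ins2, Slc2a2, G6pc2, Kcnj11, Abcc8, Trpm5, Ucn3, Papss2 and Nnat cover insulin itself, the entry and phosphorylation of glucose, the ATP-sensitive potassium (KATP) channel, the cation channel Trpm5 and markers of beta-cell maturity. They were taken by symbol, as every probe set of the expression array annotated to exactly 1 of these genes, which gave 16 probe sets of 45037 tested and 9 genes of 18193 named. Pancreatic islets were isolated from 3 hIAPP-Tg mice (replicates 4 to 6) and 3 wild-type mice (replicates 1 to 3), all 12 weeks old per the sample labels (10 to 12 weeks per the design text) and fed standard chow. The transgenic mice make human islet amyloid polypeptide, a beta-cell peptide whose human form readily builds amyloid. Strain is labelled FVB/N-Tg(Ins2-IAPP)RFHSoel/J for both genotypes, and this name places the IAPP transgene under an Ins2 promoter, active mainly in beta cells. Neither its copy number nor its zygosity is stated in the labels. Each Affymetrix array held RNA of 1 mouse per the titles, and every level below is a log2 value normalized by the authors with RMA, a method that gives all arrays the same overall distribution.

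Beta cells release insulin in proportion to their metabolism of glucose. Glucose enters through the transporter encoded by Slc2a2 in rodents and is phosphorylated, a step that the phosphatase G6pc2 reverses. The resulting ATP closes the KATP channel made of Kcnj11 and Abcc8, the membrane depolarizes, calcium enters and insulin granules fuse. Ucn3 appears late as mouse beta cells mature and is widely used as a marker of that state.

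Of the 16 probe sets, 0 passed an adjusted p of 0.05 between genotypes in limma with Benjamini-Hochberg adjustment, and 7 had an unadjusted p under 0.05, of which 6 were lower and 1 was higher in hIAPP-Tg islets. Over all 45037 probe sets, 0.0289% passed the adjusted threshold and 7.33% the unadjusted one, with 3.51% lower and 3.82% higher. The 16 are not 16 independent measurements, since Papss2 has 4 of them, Trpm5 3, and Kcnj11 and Abcc8 have 2 each. The 6 lower ones belong to Trpm5 (2 probe sets), Papss2 (3) and Nnat (1), and the higher one to Abcc8. Adjusted p-values of the 16 ran from 0.503 to 1.0. With the brightest probe set standing for each gene, the median difference of the 9 genes was -0.13 on the log2 scale (hIAPP-Tg minus wild type, as throughout), with 6 genes below 0, 2 above and 1 at 0. Over all 18193 genes the median was 0, with 40.5% below 0 and 48.0% above.

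**Figure D1:**
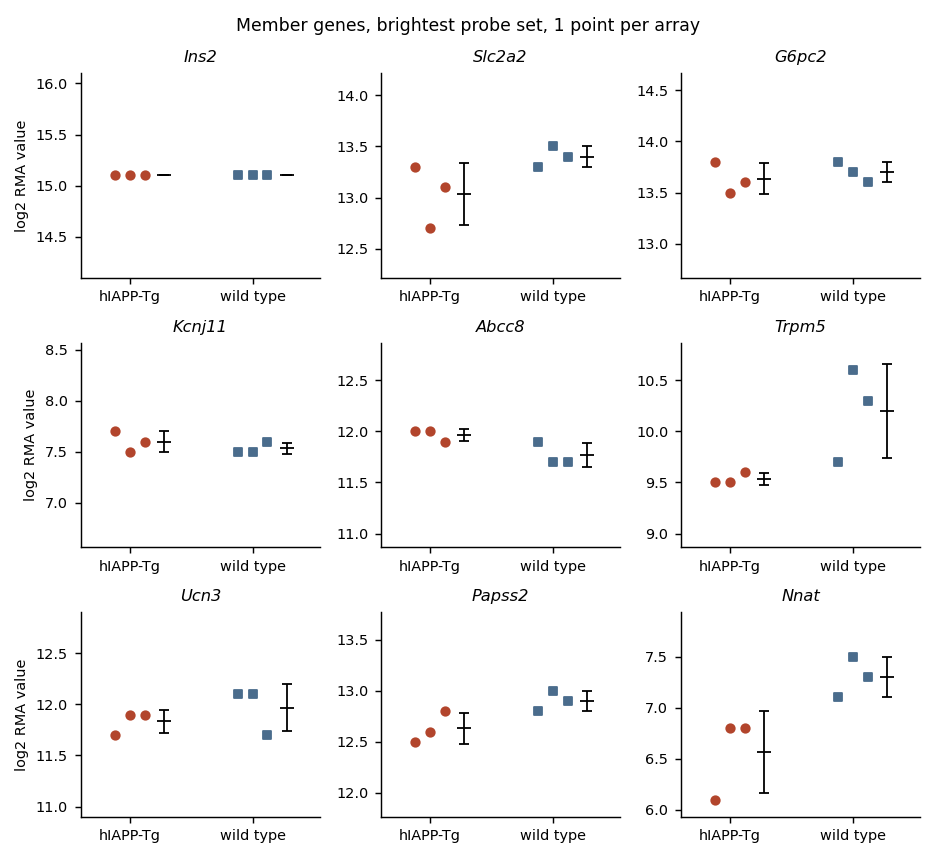
Log2 RMA value (y axis, a window of the same height in each panel) of the brightest probe set of each of the 9 genes in hIAPP-Tg and wild-type islets. Each point is 1 array and bars are mean ± SD (n = 3 each). Trpm5 and Nnat are the panels in which no hIAPP-Tg point reaches a wild-type point.

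Ins2 encodes insulin. Its probe set read 15.1 on each of the 3 hIAPP-Tg arrays and 15.1 on each of the 3 wild-type arrays, which is the highest value in the table, so a difference in its transcript could be hidden by saturation. The probe set is of the type whose probes may also match similar transcripts, so insulin transcripts of its close relative cannot be told apart from it here.

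Slc2a2, the low-affinity glucose transporter, stood at 13.3, 12.7 and 13.1 in hIAPP-Tg islets and at 13.3, 13.5 and 13.4 in wild-type islets. The genotypes overlapped at 13.3, and hIAPP-Tg replicate 5 was the lowest array. The mean was 13.03 ± 0.306 in hIAPP-Tg islets, against 13.4 ± 0.10 in wild type (SD, n = 3 each), a log2 difference of -0.37 (SE 0.16, 95% interval -0.75 to 0.01, limma adjusted p = 0.632). G6pc2, the islet glucose-6-phosphatase that opposes glucose phosphorylation, was at 13.8, 13.5 and 13.6 in hIAPP-Tg and at 13.8, 13.7 and 13.6 in wild-type islets. The genotypes overlapped from 13.6 to 13.8, hIAPP-Tg replicate 5 was the lowest array, and the difference was -0.07 (SE 0.098, 95% interval -0.30 to 0.17, limma adjusted p = 0.887). Both genes were measured by 1 probe set each, high on the scale.

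Kcnj11 forms the pore of the KATP channel, and Abcc8 is the sulfonylurea receptor that surrounds it. The genes lie next to each other on chromosome 7 in RefSeq. The brighter Kcnj11 probe set was at 7.7, 7.5 and 7.6 in hIAPP-Tg and 7.5, 7.5 and 7.6 in wild-type islets, and the other at 6.5, 6.4 and 6.4 in hIAPP-Tg against 6.4, 6.3 and 6.4 in wild-type islets. The values of both probe sets overlapped. Each differed by 0.07, with 95% intervals of -0.11 to 0.24 and -0.09 to 0.22 and limma adjusted p of 0.818 and 0.793. The brighter Abcc8 probe set read 12.0, 12.0 and 11.9 in hIAPP-Tg islets and 11.9, 11.7 and 11.7 in wild-type islets. The genotypes met at 11.9, and the difference of 0.20 (SE 0.0779, 95% interval 0.01 to 0.39) had an adjusted p of 0.62 in limma. The second Abcc8 probe set, at 9.0, 9.0 and 8.8 in hIAPP-Tg against 8.7, 9.1 and 8.8 in wild-type islets, differed by 0.07 (95% interval -0.23 to 0.36), and its genotypes overlapped over most of their range. Abcc8 was thus the sole one of the 9 genes with a probe set higher at an unadjusted p under 0.05, and its other probe set was not.

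Trpm5 is a calcium-activated cation channel that carries monovalent ions and adds to the depolarization of beta cells. Its brightest probe set (1418783_at) was at 9.5, 9.5 and 9.6 in hIAPP-Tg islets and at 9.7, 10.6 and 10.3 in wild-type islets. The genotypes did not overlap, but wild-type replicate 1 lay within 0.1 of the highest hIAPP-Tg array. The mean was 9.53 ± 0.0577 in hIAPP-Tg islets, against 10.2 ± 0.458 in wild type (SD, n = 3 each), a log2 difference of -0.67 (SE 0.22, 95% interval -1.2 to -0.14) or 63.0% of the wild-type level, with a limma adjusted p of 0.557. A second probe set (1443413_s_at) read 8.8, 8.6 and 8.8 in hIAPP-Tg against 9.0, 9.9 and 9.6 in wild-type islets and differed by -0.77 (SE 0.22, limma adjusted p = 0.552). The remaining one (1449224_at) read 7.1, 7.0 and 7.2 in hIAPP-Tg against 7.1, 8.0 and 7.7 in wild-type islets, overlapped, and differed by -0.50 (95% interval -1.04 to 0.04, limma adjusted p = 0.632). In all 3 probe sets the spread lay in the wild-type arrays, since the SD was 0.0577 to 0.115 in hIAPP-Tg islets, against 0.458 in wild-type islets. In whole islets, fewer cells of a type and less RNA per cell cannot be told apart.

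Ucn3, urocortin 3, is secreted by mature beta cells in mice and stimulates somatostatin release from delta cells. It was at 11.7, 11.9 and 11.9 in hIAPP-Tg islets and at 12.1, 12.1 and 11.7 in wild-type islets. The genotypes overlapped, and the difference was -0.13 (SE 0.13, 95% interval -0.45 to 0.18, limma adjusted p = 0.81). It was -0.267 without wild-type replicate 3 (limma adjusted p = 0.704), -0.067 without hIAPP-Tg replicate 4 or without wild-type replicate 1 or 2, and -0.001 with array quality weights.

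Papss2 makes the activated sulfate that sulfotransferases use, and its 4 probe sets gave differences of -0.60 to -0.03. The brightest (1434510_at) was at 12.5, 12.6 and 12.8 in hIAPP-Tg and 12.8, 13.0 and 12.9 in wild-type islets, which met at 12.8. Its difference was -0.27 (SE 0.098, 95% interval -0.50 to -0.03, limma adjusted p = 0.62). Probe set 1421987_at, at 8.7, 8.8 and 8.7 in hIAPP-Tg against 9.0, 9.6 and 9.4 in wild-type islets, did not overlap. It had the smallest adjusted p of the 16, with a difference of -0.60 (SE 0.15, 95% interval -0.97 to -0.23, limma adjusted p = 0.503), or 66.0% of the wild-type level. Probe set 1421989_s_at, at 9.8, 9.9 and 9.9 in hIAPP-Tg against 10.0, 10.5 and 10.4 in wild-type islets, did not overlap either and differed by -0.43 (SE 0.13, limma adjusted p = 0.552). The last, 1421988_at, read 4.6 to 4.8 in hIAPP-Tg and 4.7 to 4.8 in wild-type islets. That is under the median of 5.7 of each array and not known to be above background, so it carries little information on Papss2.

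Nnat, neuronatin, is an imprinted gene expressed from the paternal copy. Its small membrane protein helps the signal peptidase process preproinsulin in mouse beta cells. It was measured by 1 probe set. Its difference was the largest among the brightest probe sets of the 9 genes with all arrays equally weighted, but smaller than that of Trpm5 without hIAPP-Tg replicate 4 (-0.50 against -0.65), without wild-type replicate 1 (-0.83 against -0.92) and with array quality weights (-0.69 against -0.717). The values were 6.1, 6.8 and 6.8 in hIAPP-Tg islets and 7.1, 7.5 and 7.3 in wild-type islets. The genotypes did not overlap, and hIAPP-Tg replicate 4 lay lowest. The mean was 6.57 ± 0.404 in hIAPP-Tg islets, against 7.3 ± 0.20 in wild type (SD, n = 3 each), a log2 difference of -0.73 (SE 0.21, 95% interval -1.25 to -0.22, limma adjusted p = 0.552), or 60.2% of the wild-type level. Nnat lies within Blcap in RefSeq, and Blcap, at 9.1, 9.2 and 9.4 in hIAPP-Tg and 9.1, 9.2 and 9.0 in wild-type islets, differed by 0.13 (limma adjusted p = 0.77) and overlapped.

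**Figure D2:**
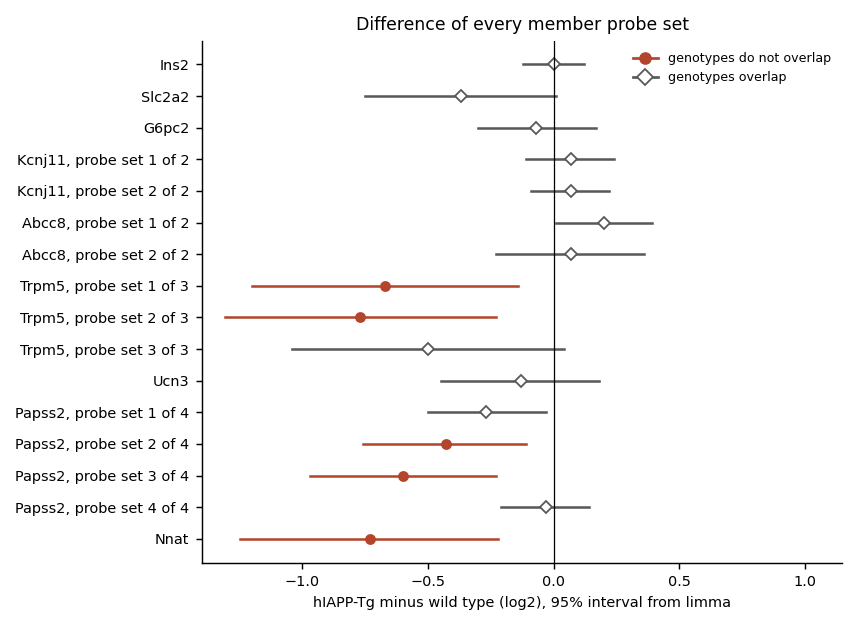
Difference between genotypes (hIAPP-Tg minus wild type, log2, x axis) for each of the 16 probe sets, with the 95% interval from limma, not adjusted for the number of probe sets. Filled circles are the 5 probe sets whose genotypes do not overlap, of Trpm5, Papss2 and Nnat, all left of 0. Probe sets of a gene run from the brightest down. The values of Ins2 are all 15.1, and its interval of -0.12 to 0.12 rests on the spread that limma borrows from the other probe sets.

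The genotypes did not overlap in 5 of the 16 probe sets, 2 of Trpm5, 2 of Papss2 and 1 of Nnat, and all 5 were lower in hIAPP-Tg islets. Of all probe sets tested, 6.66% did not overlap, 3.22% with lower and 3.44% with higher values in hIAPP-Tg islets. For each of the 5 an exact two-sided permutation test over the arrays gave p = 0.1, the smallest that 3 against 3 arrays allow, so this design cannot reach 0.05 for a single gene by that test.

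The promoter windows of these 3 genes are shown because their probe sets were lower together. The sequences are the 250 bases before the annotated start, from RefSeq (GRCm38.p6), 5′ to 3′ on the gene's strand. They were searched on both strands for an E box (CATCTG), a homeodomain A box (TAATTA), a Maf half-site (TGCTGA), a GC box (GGGCGG) and a TATA box (TATAAA). These motifs occur in 14.4%, 4.84%, 16.1%, 32.7% and 12.4% of 32851 promoter windows of this length. Capitals mark matches.
Trpm5, chr7:143094643-143094892, minus strand: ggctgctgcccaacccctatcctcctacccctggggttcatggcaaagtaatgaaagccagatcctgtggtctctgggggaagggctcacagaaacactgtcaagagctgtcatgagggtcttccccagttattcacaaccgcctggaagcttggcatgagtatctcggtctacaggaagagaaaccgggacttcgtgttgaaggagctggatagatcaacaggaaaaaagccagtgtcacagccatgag
Papss2, chr19:32595465-32595714, plus strand: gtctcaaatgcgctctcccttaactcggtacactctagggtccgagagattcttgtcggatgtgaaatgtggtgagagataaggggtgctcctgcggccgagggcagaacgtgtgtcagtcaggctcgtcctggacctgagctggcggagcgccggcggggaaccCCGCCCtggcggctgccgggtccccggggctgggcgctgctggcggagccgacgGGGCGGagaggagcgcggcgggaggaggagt
Nnat, chr2:157559828-157560077, plus strand: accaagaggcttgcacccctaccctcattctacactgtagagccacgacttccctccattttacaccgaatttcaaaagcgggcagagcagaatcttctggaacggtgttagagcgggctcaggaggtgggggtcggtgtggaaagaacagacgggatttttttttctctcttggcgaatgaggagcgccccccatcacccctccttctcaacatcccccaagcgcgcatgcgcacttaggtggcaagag
The Papss2 window holds 2 GC boxes, which do not overlap, and no match to the other motifs. A second annotated Papss2 start has a window with no match to any of them. The windows of Trpm5 and Nnat hold none of the 5. The GC content was 67.6% for Papss2, 52.8% for Trpm5 and 54.8% for Nnat, against a median of 52.4% over all windows. A match describes these letters and is not evidence of a bound factor. Windows were matched for 6 of the 9 genes. The windows of Slc2a2 and of the first G6pc2 start hold none of the 5 motifs. The window of a second G6pc2 start holds 2 E boxes and 2 Maf half-sites, and that of Ucn3 holds 1 E box.

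The probe sets of Trpm5, Papss2 and Nnat also varied alike among the wild-type mice. Wild-type replicate 1 was the lowest of the 3 wild-type arrays in 7 of these 8 probe sets and replicate 2 the highest in 7 of 8. Over all probe sets tested, replicate 1 was lowest in 27.5% and replicate 2 highest in 27.1%. The exception in both counts was the dim Papss2 probe set. The 8 are not independent measurements, since Papss2 has 4 of them, Trpm5 3 and Nnat 1. This order was not limited to these genes. On wild-type replicates 1 to 3 Slc2a2 was at 13.3, 13.5 and 13.4, and the second Abcc8 probe set at 8.7, 9.1 and 8.8. Replicate 1 was the lowest wild-type array in 9 of all 16 member probe sets. Without wild-type replicate 1 the brightest Trpm5 probe set differed by -0.92, and without wild-type replicate 2 by -0.47. The corresponding values were -0.32 and -0.22 for the brightest Papss2 probe set and -0.83 and -0.63 for Nnat. For Nnat the difference was -0.50 without hIAPP-Tg replicate 4, and for Slc2a2 it was -0.20 without hIAPP-Tg replicate 5. No member probe set passed an adjusted p of 0.05 in any of these fits.

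Markers of other cells moved with the genotypes or with single arrays. The 13 measured acinar markers, of 16 listed, were lower in hIAPP-Tg islets on average for 13 of 13, with a median difference of -1.03. Their mean log2 level was 12.24, 9.78 and 11.25 on the hIAPP-Tg arrays and 11.13, 12.45 and 12.78 on the wild-type arrays, and their summed linear level was 15300 to 93500 in hIAPP-Tg against 41500 to 135000 in wild-type islets. Wild-type replicate 1, lowest of its genotype for Trpm5, Papss2 and Nnat, was also lowest for these markers, and hIAPP-Tg replicate 5, lowest for Slc2a2 and G6pc2, was the lowest array of all. On the hIAPP-Tg arrays Slc2a2 and G6pc2 followed the order of the acinar mean, highest on replicate 4 and lowest on replicate 5. On the wild-type arrays Slc2a2 was lowest on replicate 1 but highest on replicate 2, and G6pc2 was highest on replicate 1. For Trpm5, Papss2 and Nnat the other arrays were not ordered alike. The highest acinar mean was on wild-type replicate 3, whereas Trpm5, Papss2 and Nnat were highest on replicate 2 by their brightest probe sets. On hIAPP-Tg replicate 4, highest of its genotype for acinar markers, Trpm5 was at 9.5, as on replicate 5, and Nnat lowest at 6.1. Wild-type replicate 1 also stood apart on the mean of the 6 stellate and fibroblast markers. This mean log2 level was 9.45, 9.3 and 9.33 on the hIAPP-Tg arrays and 10.0, 9.25 and 9.22 on the wild-type arrays. On wild-type replicate 1 Col1a1 was at 6.8, Col1a2 at 10.1, Col3a1 at 11.5 and Dcn at 10.9, each the highest of the 6 arrays. Pdgfrb, at 9.0, and Rgs5, at 11.7, lay within the range of the other arrays. With the acinar mean as a covariate the difference was -0.51 for Trpm5, -0.26 for Papss2, -0.85 for Nnat and -0.17 for Slc2a2. Their unadjusted limma p was 0.083, 0.0884, 0.0163 and 0.15 in that fit, against 0.0212, 0.033, 0.013 and 0.0555 without the covariate. All 10 macrophage markers were higher in hIAPP-Tg islets, with a median difference of 1.25 and mean log2 levels of 8.62, 8.78 and 8.78 on the hIAPP-Tg against 7.52, 7.55 and 7.36 on the wild-type arrays. Their summed linear level was 5900 to 6840 in hIAPP-Tg and 3020 to 3380 in wild-type islets. Their part in the differences of the 9 genes was not tested. No marker is at 0 on this scale.

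The islet hormones other than insulin were high in both genotypes. Iapp was at 14.9 to 15.0, Gcg, the alpha-cell hormone, at 14.7 to 14.8, Sst, of delta cells, at 14.0 to 14.2 and Ppy at 14.5 over the 6 arrays. These lie near the highest value in the table, 15.1, so differences in them could be hidden by saturation, as for Ins2. The transcription factor genes of the delta- and alpha-cell lists were lower on the scale. Hhex was at 8.0, 7.9 and 8.1 in hIAPP-Tg against 8.4, 8.3 and 8.3 in wild-type islets, a difference of -0.33 without overlap (limma adjusted p = 0.431). Irx2 was at 7.0, 6.8 and 6.9 in hIAPP-Tg against 7.2, 7.1 and 7.1 in wild-type islets, a difference of -0.23 without overlap (limma adjusted p = 0.552). The rest of these lists did not share a direction. In the delta-cell list Rbp4 differed by 0.17 and Sst by -0.10, and in the alpha-cell list Gcg by 0.03 and Ttr by -0.07, all with overlap. The mean of the 5 measured beta-cell markers outside the 9, of 7 listed, was 12.2, 11.96 and 12.28 in hIAPP-Tg and 12.36, 12.28 and 12.22 in wild-type islets, and the genotypes overlapped.

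**Figure D3:**
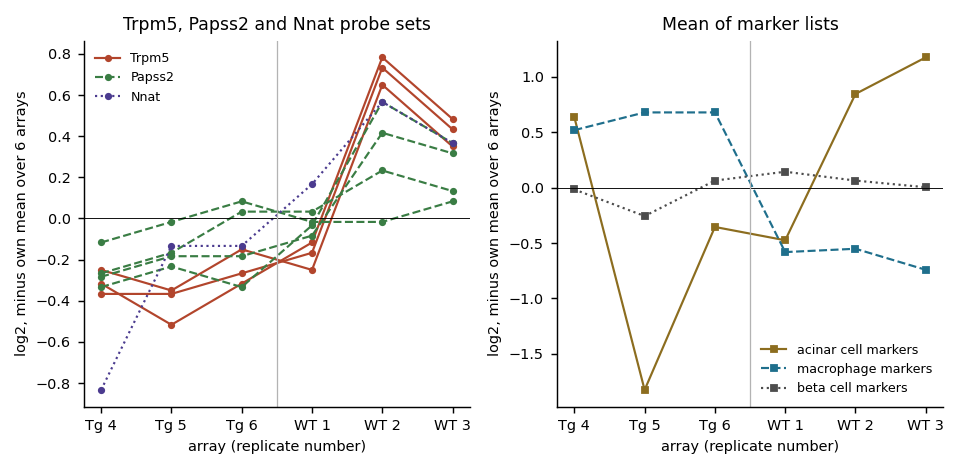
Left, the 8 probe sets of Trpm5, Papss2 and Nnat on each array, and right, the mean of the acinar, macrophage and beta-cell marker lists, each as log2 value minus its own mean over the 6 arrays (y axis). Arrays run along the x axis, Tg 4 to Tg 6 being hIAPP-Tg and WT 1 to WT 3 wild type, and lines only join the points of 1 probe set or list. Wild-type replicate 1 lies near the hIAPP-Tg arrays for Trpm5 and Papss2 and below the other wild-type arrays for the acinar list.

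Other genes of the same pathways were read from 8 lists, in which 61 of 67 genes were measured. Of the 61, 0 passed an adjusted p of 0.05 in limma, and 9 had an unadjusted p under 0.05, 6 higher and 3 lower, against 7.33% of all probe sets. Their median difference was 0.07. The other 6 listed genes are not analysed here.

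Among genes of glucose entry and phosphorylation the median was 0.13 (9 measured, -0.07 to 0.37). Slc37a4, the transporter that feeds glucose 6-phosphate to the phosphatase in the endoplasmic reticulum, was at 9.8, 10.1 and 9.7 in hIAPP-Tg against 9.3, 9.6 and 9.6 in wild-type islets. It differed by 0.37 without overlap (limma adjusted p = 0.62). Mitochondrial coupling genes had a median of 0.10 (6 measured), and the malate dehydrogenase gene Mdh1 differed by 0.17 (limma adjusted p = 0.62), and its 4 dimmer probe sets by -0.10 to 0.13, all with overlap.

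In the membrane excitability list (11 measured, median 0.03), the other sulfonylurea receptor Abcc9, which smooth muscle and pericytes use, was at 7.8, 8.0 and 7.8 in hIAPP-Tg and 7.3, 7.4 and 7.2 in wild-type islets. Its difference of 0.57 had a limma adjusted p of 0.269, and its 2 dimmer probe sets each differed by 0.20. Kcnj8, of the same list, was at 6.2, 6.1 and 6.1 in hIAPP-Tg and 6.0, 6.2 and 6.0 in wild-type islets. It overlapped and differed by 0.07 (limma adjusted p = 0.83). Of the pericyte genes in the stellate list, Pdgfrb differed by 0.43 without overlap (limma adjusted p = 0.552) and Rgs5 by 0.27 with overlap (limma adjusted p = 0.632). Col1a1, Col1a2, Col3a1 and Dcn of that list differed by -0.30, -0.20, -0.50 and -0.47, all with overlap. The list's median difference was -0.25. The part of Pdgfrb and Rgs5 in the Abcc9 difference was not tested. Cacna1c, a pore subunit of L-type calcium channels, differed by -0.27 (limma adjusted p = 0.557), and its dimmer probe set by -0.03. Trpm4, the closest relative of Trpm5, differed by 0, with 7.9, 7.9 and 7.8 in hIAPP-Tg against 7.8, 8.0 and 7.8 in wild-type islets. Trpm2 differed by 0.03 and Trpm3 by 0.23, with adjusted p of 0.908 and 0.731 in limma.

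The maturity list had a median of -0.03 (10 measured, -0.33 to 0.33). Esrrg, a nuclear receptor of mature beta-cell metabolism, was the 1 member at an unadjusted p under 0.05, with a difference of 0.23 (limma adjusted p = 0.503), and its 2 dimmer probe sets differed by 0 and 0.23, both with overlap. In the immaturity list (5 measured, median 0.07), the neuropeptide gene Npy was at 9.7, 8.7 and 8.9 in hIAPP-Tg and 10.0, 11.0 and 10.4 in wild-type islets. It differed by -1.37 (limma adjusted p = 0.503), and wild-type replicate 1 was lowest and replicate 2 highest of their genotype here too. The tetraspanin gene Cd81 differed by 0.37 (limma adjusted p = 0.419) and Ldha, a lactate dehydrogenase gene kept low in mature beta cells, by 0.43 (limma adjusted p = 0.521), both without overlap.

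For the partners of the single maturity markers, the corticotropin-releasing family of Ucn3 had 6 measured genes and a median of -0.02. Crhr1, a receptor of this family, was at 5.9, 5.8 and 5.7 in hIAPP-Tg and 5.9, 6.1 and 6.1 in wild-type islets, which met at 5.9 (difference -0.23, limma adjusted p = 0.62). Crhr2, the receptor of Ucn3, was at 4.2 to 4.5 in hIAPP-Tg and 4.4 to 4.5 in wild-type islets, under the array median. The 8 genes around the sulfate donor lay at 0.03 to 0.23, above 0 in 8 of 8, where 48.0% of all genes lay above 0, and none had an unadjusted p under 0.05. Of all 61 pathway genes measured, these 8 included, 39 lay above 0. Whether this direction was particular to the list was not tested. Over all probe sets with a mean of 7 or more the median difference was 0.033. The difference of the sulfate donor genes from Papss2 was not tested. Papss1, the second synthase of this donor, was at 9.6, 10.1 and 9.8 in hIAPP-Tg against 9.5, 9.7 and 9.7 in wild-type islets, with a difference of 0.20 (limma adjusted p = 0.734). The 6 genes of the signal peptidase and the Nnat locus had a median of 0.13, a range of 0 to 0.23 and none at an unadjusted p under 0.05.

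**Figure D4:**
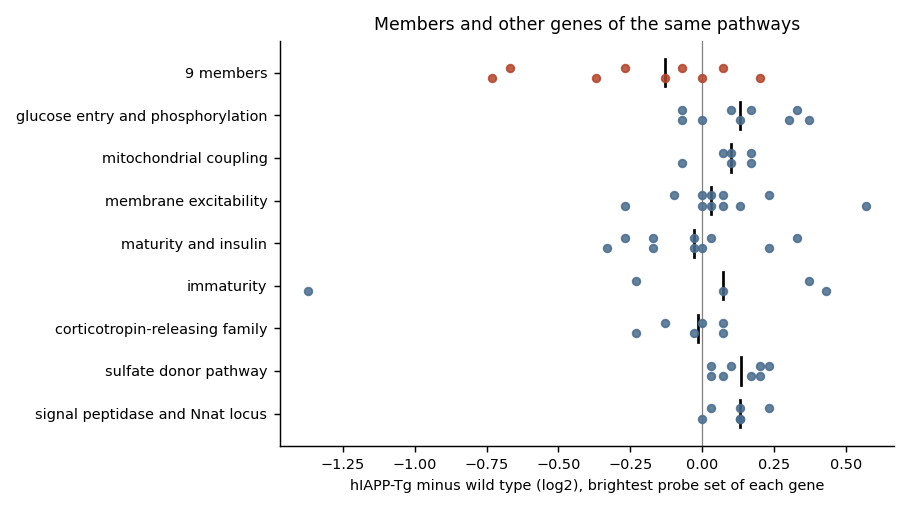
Difference between genotypes (hIAPP-Tg minus wild type, log2, x axis) of the brightest probe set of each gene, for the 9 genes (top row) and for 8 lists of other genes of the same pathways. Each point is 1 gene and black bars are medians. The 9 genes have a median of -0.13 and the lists medians of -0.03 to 0.13.

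The profile over the 6 arrays most like that of Nnat was sought among 8189 other genes with a mean of 7 or more, as the smallest root mean square difference after centring each profile. It was found for Fam184b (0.126 on the log2 scale), Plekhh1 (0.163), the stress kinase gene Mapk10 (0.18), the interleukin-1 receptor gene Il1r1 (0.20) and Tesk1 (0.205), against a median of 0.468 over the candidates. Fam184b was at 7.4, 7.8 and 8.1 in hIAPP-Tg and 8.3, 8.5 and 8.4 in wild-type islets, and like Nnat it was lowest in hIAPP-Tg replicate 4. This likeness describes 6 arrays and uses the genotype difference itself.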

How the data were processed

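The authors deposited log2 values of 45101 probe sets on 6 arrays. The submitters' processing notes name RMA and affy, with no versions. Values ran from 2.9 to 15.1 in steps of 0.1, with a median of 5.7 on each array. Arrays have no read depth, and their number limits the precision. The actin controls differed by 1.2 to 1.3 (3′ minus 5′, log2) on every array. The Gapdh controls differed by 0.0, 0.2 and 0.1 on the hIAPP-Tg arrays and by 0.0, 0.0 and 0.1 on the wild-type arrays. After leaving out 64 control probe sets, 45037 were tested with limma 3.58.1 in R 4.3.3 (two-sided, no covariate, Benjamini-Hochberg adjustment over all, threshold 0.05). Probe sets were named through the platform annotation, and a gene's brightest probe set by mean over all arrays stood for it. Gene order came from RefSeq, assembly GRCm38.p6. All probe sets of the 9 genes are given. From each pathway list the gene with the smallest unadjusted p below 0.05 without overlap was named in each direction, besides Blcap. Papss1, Crhr1, Crhr2, Kcnj8, Ldha, Trpm2, Trpm3 and Trpm4 were added after their values were seen. So were Hhex, Irx2, Rbp4, Ttr, Pdgfrb, Rgs5, Col1a1, Col1a2, Col3a1 and Dcn. The genes and lists were chosen with earlier results of these data known. Alternatives were filters on dim probe sets, other priors, quantile normalization, centred medians, array weights, averaged probe sets, an acinar covariate and leaving out each array. The fit was tested on simulated data. Nothing says that mice came from separate litters, and the groups share no replicate numbers. Figures used matplotlib 3.10.9.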

Additional observations from a re-analysis of the deposited data

How the results depend on the processing

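The limma comparison was repeated under 10 other settings and 6 fits that each left out 1 array. Among the 9 genes, 143 values were obtained (Nnat is not in the fit limited to probe sets with a mean of 7 or more). Of these, 0 reversed direction, counting differences that round to 0 as having none, and 0 passed an adjusted p of 0.05, the smallest being 0.306. Over all 16 probe sets the smallest was 0.241, for Papss2 with array quality weights. The second Abcc8 probe set went as low as -0.02 and the dim Papss2 probe set as high as 0.02 when an array was left out. No member probe set and no pathway gene passed in any setting. The median of the 9 genes, -0.133, was -0.2 with quantile normalization and -0.031 with array quality weights, and ran from -0.267 to -0.067 when arrays were left out. The cause was not tested. The number of probe sets past the threshold over all 45037 was 13, and it was 51 with a robust prior, 30 with quantile normalization, 26 with array quality weights, 3 with the acinar covariate, 1 without moderation and 1 to 4 when an array was left out. No paired analysis was possible because the groups share no replicate numbers. Steps of 0.1 limit what can be seen in Ins2, G6pc2 and Kcnj11.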

Other observations

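Ins2 and Trpm5 lie on chromosome 7 with 5 protein-coding genes between them in RefSeq, all 5 measured. This stretch was looked at after the values were seen. Of the 5, Tspan32, Cd81 and Tssc4 had an unadjusted limma p under 0.05 on their brightest probe sets, all 3 higher in hIAPP-Tg islets, against 7.33% of all probe sets at this threshold and 3.82% higher, and 0 passed the adjusted threshold. Tspan32, a tetraspanin of blood cells, was at 7.2, 7.3 and 7.2 in hIAPP-Tg against 6.7, 6.7 and 7.1 in wild-type islets (difference 0.40). Tssc4, which neighbours Trpm5, was at 9.9, 10.3 and 9.9 in hIAPP-Tg against 9.7, 9.7 and 9.7 in wild-type islets (difference 0.33). Th differed by 0.13 and Ascl2 by 0.07, both with overlap. The differences of all 5 lay above 0, as did those of 48.0% of all genes, and that of Trpm5 was -0.67. The differences were not compared by a test.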
